A study of Solanum lycopersicum with 8 samples.

Results

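Chromosomes 9, 10 and 12 of tomato were described in 2 lists, one of open chromatin in leaves and one of chromosome contacts in inflorescences. They were chosen by their low number of accessible chromatin regions (ACRs, the peaks of an ATAC-seq list) per Mb. Together they held 14221 of the 69690 listed ACRs, or 20.6% of the 69143 ACRs on chromosomes 1 to 12. They also held 1737 of the 9573 listed loops, or 18.1%. ATAC-seq, which maps open chromatin through the cuts of a transposase, was run on the terminal leaflets of young leaves in 6 replicates with the genotype label M82, a tomato cultivar. Each replicate used 1 g of leaf, and each reaction used 100000 nuclei. Contacts were measured by Hi-C in 2 replicates of inflorescences labelled as the anantha-e1546 mutant in the M82 background, from different plants, harvested 10 weeks after sowing. ANANTHA encodes an F-box protein that specifies floral meristems, and the mutant inflorescence forms a cauliflower-like mass of meristems. The growth text of the labels names this mutant for the ATAC-seq plants too, which differs from their genotype label. Replicates were combined in both lists, and read depth is unknown. The errors given are therefore SDs over chromosomes or intervals for counting error.

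Tomato chromosomes have gene-rich euchromatin in their distal arms and long blocks of repeat-rich heterochromatin around the centromere. Accessible regions mark promoters, enhancers and other sites where proteins displace nucleosomes. Loops join distant sites of a chromosome, and Hi-C callers list pairs of bins in contact more often than their distance predicts. Heterochromatin is compact, and short reads are hard to place in its repeats. How far repeats or assembly gaps fill the stretches without features described here was not tested. The ACR list is in SL4.0 coordinates and the loop list names no assembly, so each list is described in its own coordinates.

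The chromosomes were sparse in the list of ACRs, but not the 3 sparsest of the 12. Chromosome 12 had 67.5 ACRs per Mb, from 4500 ACRs over an extent of 66.7 Mb. Chromosome 10 had 71.0 ACRs per Mb, from 4597 over 64.8 Mb. Chromosome 9 had 74.9 ACRs per Mb, from 5124 over 68.5 Mb. Here the extent is the position of the last listed feature. Chromosome 5, which is outside the set, lay between chromosomes 10 and 9 at 72.5 ACRs per Mb, and chromosome 11 followed chromosome 9 at 77.4. The mean was 71.1 ± 3.69 ACRs per Mb (SD, n = 3 chromosomes) against 97.4 ± 23.3 on the other 9 chromosomes. No test was made, because this density chose the chromosomes. ACRs covered 6.34% of the extent of chromosome 9, 6.40% of chromosome 10 and 5.97% of chromosome 12, and between 6.26% and 13.2% of the others.

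Loops were scarcest on chromosomes 12 and 10 as well. Chromosome 12 had 483 loops, or 6.86 per Mb, and chromosome 10 had 514, or 7.76 per Mb. Chromosomes 5 and 11 came next, at 9.39 and 10.2 loops per Mb, and chromosome 9 followed them with 740 loops or 10.8 per Mb. The other 9 chromosomes had between 9.39 and 20.8 loops per Mb. Set against the ACRs, chromosome 9 had 14.4 loops per 100 ACRs, within the range of 13.5 to 15.2 of the other 9. Chromosomes 10 and 12 fell below that range, at 11.2 and 10.7 loops per 100 ACRs. Tissue and genotype label differ between the assays, so this ratio is a description of the lists and was not tested.

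**Figure D1:**
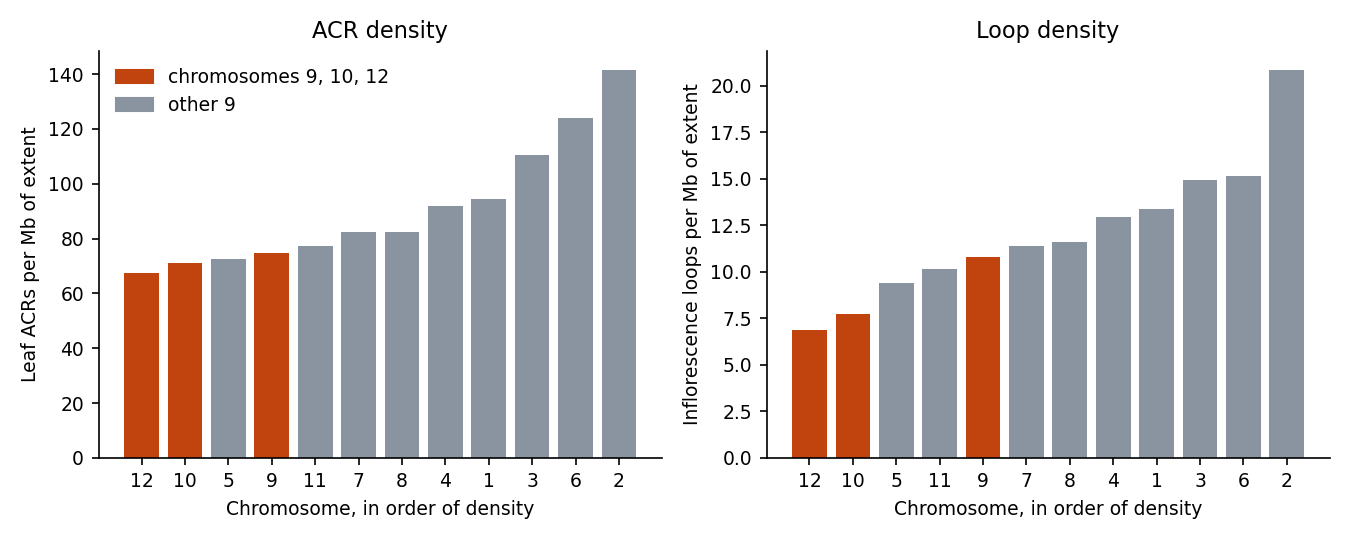
Leaf ACRs per Mb (left) and inflorescence loops per Mb (right) of each list's extent for the 12 chromosomes, in order of density, with chromosomes 9, 10 and 12 in orange. Chromosomes 12 and 10 are lowest in both lists, at 67.5 and 71.0 ACRs and 6.86 and 7.76 loops per Mb, while chromosome 9 lies among the others at 74.9 ACRs and 10.8 loops per Mb.

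All 3 chromosomes had the same layout, with short dense arms around a long sparse interior. The interior was defined as the longest run of 1 Mb windows whose running mean over 5 windows lay below 87.5 ACRs, the mean of all 766 full windows of the 12 chromosomes. By this definition it was 51 Mb long on each of chromosomes 9, 10 and 12. It ran from 7 to 58 Mb on chromosome 9, from 5 to 56 Mb on chromosome 10 and from 7 to 58 Mb on chromosome 12 (SL4.0). It took up 74.5%, 78.7% and 76.5% of the extent in that order, against 52.9% to 76.7% on the other 9 chromosomes, where chromosome 5 had the highest share. Only chromosome 1, the longest, had a longer interior, at 63 Mb. The arms summed to 17.5 Mb on chromosome 9, 13.8 Mb on chromosome 10 and 15.7 Mb on chromosome 12, and to 14.4 to 27.8 Mb on the others. Chromosome 10 had the least arm of all 12 chromosomes.

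The arm at the end of each chromosome was longer than the arm at its start. The start arm measured 7, 5 and 7 Mb on chromosomes 9, 10 and 12, and the end arm 10.5, 8.79 and 8.69 Mb. The start arms carried 1596, 1029 and 1617 ACRs, and the end arms 2170, 2185 and 1801. On chromosome 10 the end arm was also the denser, at 249 against 206 ACRs per Mb. The order was the opposite on chromosome 9, at 208 against 228, and on chromosome 12, at 207 against 231. The densest window of each arm held between 280 and 333 ACRs. These were 330 and 321 on chromosome 9, at 1 to 2 Mb and 63 to 64 Mb, 280 and 333 on chromosome 10, at 0 to 1 Mb and 61 to 62 Mb, and 329 and 298 on chromosome 12, at 2 to 3 Mb and 64 to 65 Mb.

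The arms did not end alike on the 2 sides of chromosome 9. Going inward from the start, its windows fell from 271 ACRs at 4 to 5 Mb to 158 and then 71 ACRs at 6 to 7 Mb. The next window, the first of the interior, held 101. Going inward from the end, they fell from 321 ACRs at 63 to 64 Mb to 198, then stayed at 117, 145, 131 and 95 ACRs over the next 4 windows. Chromosome 10 fell from 276 to 174 and then 56 ACRs on its start side, and from 292 to 118, 165 and 96 on its end side. Chromosome 12 stepped down from 273 through 177 and 147 to 87 ACRs at the start, and from 244 through 191, 90, 101 and 119 to 96 ACRs towards the interior at the end. A shelf of windows with about 90 to 165 ACRs thus bordered the interior on the end side of all 3 chromosomes. Windows in that range also occurred on the start side of chromosomes 9 and 12. The other 9 chromosomes were not compared for such a shelf.

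By this cut into arms and interior, the shortage of ACRs lay more in the length of the arms than in their density or in an emptier interior. The interior held 26.6, 27.1 and 21.2 ACRs per Mb on chromosomes 9, 10 and 12, within the range of 20.5 to 27.7 on the other 9 chromosomes. The arms held 216, 233 and 218 ACRs per Mb, at the low side of the range of 216 to 289 on the others. As arithmetic, the lengths of arms and interior of each chromosome were combined with the pooled densities of the other 9, which were 244 ACRs per Mb of arm and 23.9 per Mb of interior. This gave 79.9, 70.7 and 75.6 ACRs per Mb for chromosomes 9, 10 and 12, against 74.9, 71.0 and 67.5 as listed and 95.9 for the other 9 pooled. The reverse combination, of each chromosome's own densities with the arm share of 32.8% pooled over the other 9, gave 88.6, 94.6 and 85.7 ACRs per Mb. Arms and interior were cut by an ACR count common to all chromosomes, so the split between length and density depends on that cut. These values describe the list and carry no test.

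**Figure D2:**
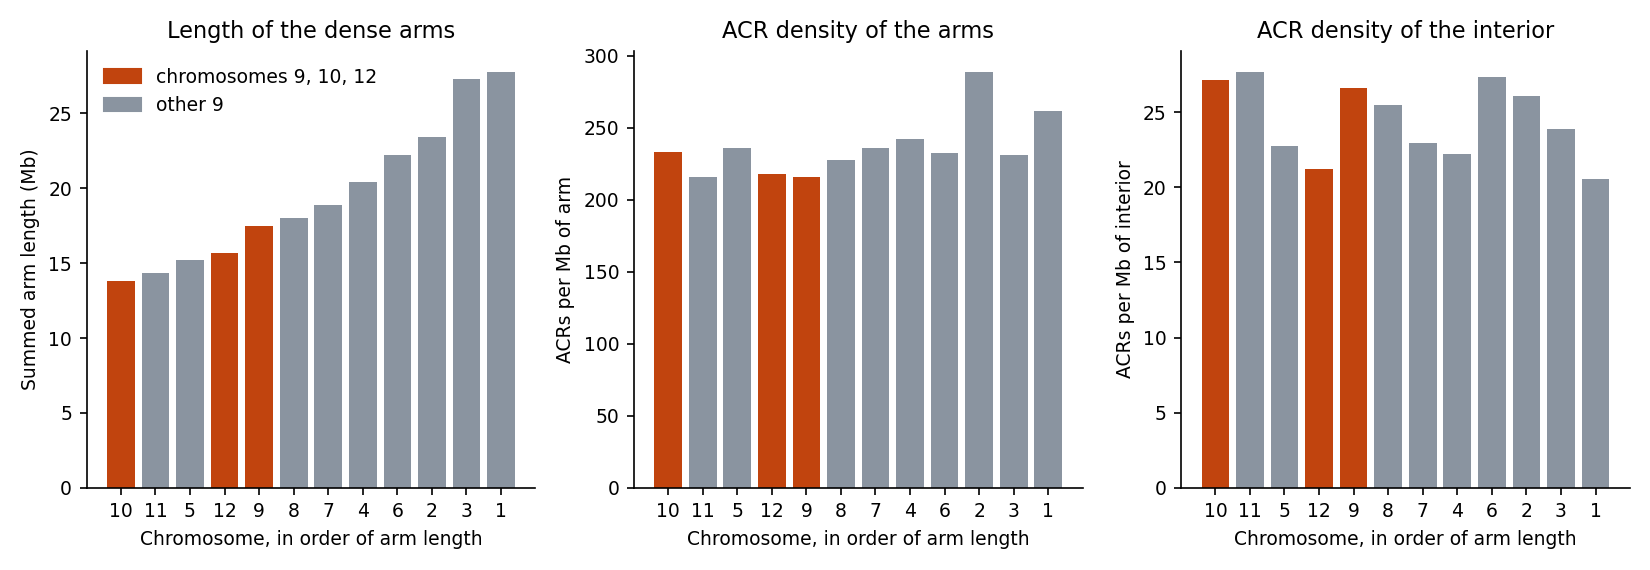
Summed length of both arms (left), ACRs per Mb of arm (middle) and ACRs per Mb of interior (right) for the 12 chromosomes, ordered by arm length, with chromosomes 9, 10 and 12 in orange. The arms of the 3 chromosomes sum to 13.8 to 17.5 Mb, while their interior densities of 21.2 to 27.1 ACRs per Mb lie among those of the other 9.

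The long interiors carried a sizeable part of the ACRs. That of chromosome 9 held 1358 ACRs, or 26.5% (95% Wilson interval 25.3 to 27.7%). Chromosome 10 had 1383 ACRs there, or 30.1% (28.8 to 31.4%), the highest share of the 12 chromosomes. Chromosome 12 had 1082, or 24.0% (22.8 to 25.3%). The other 9 chromosomes ranged from 10.3% to 26.3%. These intervals cover counting error only and treat neighbouring ACRs as independent.

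Windows nearly free of ACRs were no more frequent than elsewhere. Windows with under 10 ACRs made up 38 of the 198 full windows of the 3 chromosomes, or 19.2%, and 147 of 766 over all 12 chromosomes, also 19.2%. All 38 lay in the interior. Chromosome 12 had 16 of them, or 24.2% of its windows, the highest share of the 12 chromosomes. Chromosome 10 had 12 (18.8%) and chromosome 9 had 10 (14.7%). The median interior window held 24 ACRs on chromosome 9, 23 on chromosome 10 and 15 on chromosome 12, while the other 9 chromosomes had medians between 16 and 20.5. By this median, chromosomes 9 and 10 lay above the range of the others and chromosome 12 below it.

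Chromosome 9 nevertheless had the longest stretch without an ACR. It ran from 21972720 to 24112175, over 2.14 Mb, and filled 2 consecutive windows that held no ACR. A neighbouring stretch of 1.41 Mb ran from 19319197 to 20732713, so that 5 windows from 19 to 24 Mb held 3, 2, 10, 0 and 0 ACRs. The third longest on that chromosome, of 0.753 Mb, began at 37408911. Chromosome 12 had stretches of 1.10 Mb from 16174162, 1.08 Mb from 7857296 and 0.804 Mb from 32986096. Chromosome 10 had stretches of 1.04 Mb from 33948915, 0.898 Mb from 15593352 and 0.858 Mb from 22881985. All 9 of these stretches lay in the interiors. The longest stretch of chromosome 10 grew to 1.62 Mb when only ACRs with q at or below 0.05 were kept, and to 1.75 Mb with those at or above the median score. That of chromosome 12 grew to 1.41 and 1.48 Mb under the same sets, so the order of these 2 chromosomes turned with the set of ACRs. Stretches of at least 200 kb summed to 40.8% of the extent of chromosome 9, 39.4% of chromosome 10 and 42.7% of chromosome 12. The corresponding shares of the other chromosomes, of which 43.2% on chromosome 4 was the highest, began at 27.9%.

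Local islands of ACRs stood out within the interiors. They were looked for at least 5 windows from the interior's edges, as windows with at least 3 times the interior's median count. Chromosome 9 had an island of 83 ACRs at 50 to 51 Mb, between windows of 25 and 26. Chromosome 10 had an island of 99 ACRs, also at 50 to 51 Mb, between windows of 25 and 35. The ACRs of these islands had a median −log10 q of 2.56 and 2.58 and median widths of 620 and 631 bp, and 45.8% and 45.5% of them were at the authors' score ceiling of 1000. In the arms of the same chromosomes the −log10 q was 2.58 and 2.57, the width 647 and 693 bp and the share at the ceiling 44.1% and 42.5%. Chromosome 12 had an island of another kind, at 35 to 37 Mb, with 57 and 78 ACRs between windows of 10 each. Its ACRs were wider, with medians of 759 and 844 bp against 654 bp over the interior of chromosome 12. Fewer of them were at the ceiling, 17.5% and 25.6% against 39.1% over that interior. Their median −log10 q was 1.82 and 2.33, of which the second was close to the 2.35 of the interior. Another rise on chromosome 12 had 45 ACRs at 17 to 18 Mb, with a median width of 761 bp and 15.6% at the ceiling. It lay between windows of 4 and 39 ACRs, of which the second was under the limit of 3 times the median. The window at 17 to 18 Mb held the widest ACR of the chromosome, from 17851967 to 17863958, 11992 bp wide with a −log10 q of only 3.21. The islands were chosen after the counts were seen and were not tested.

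**Figure D3:**
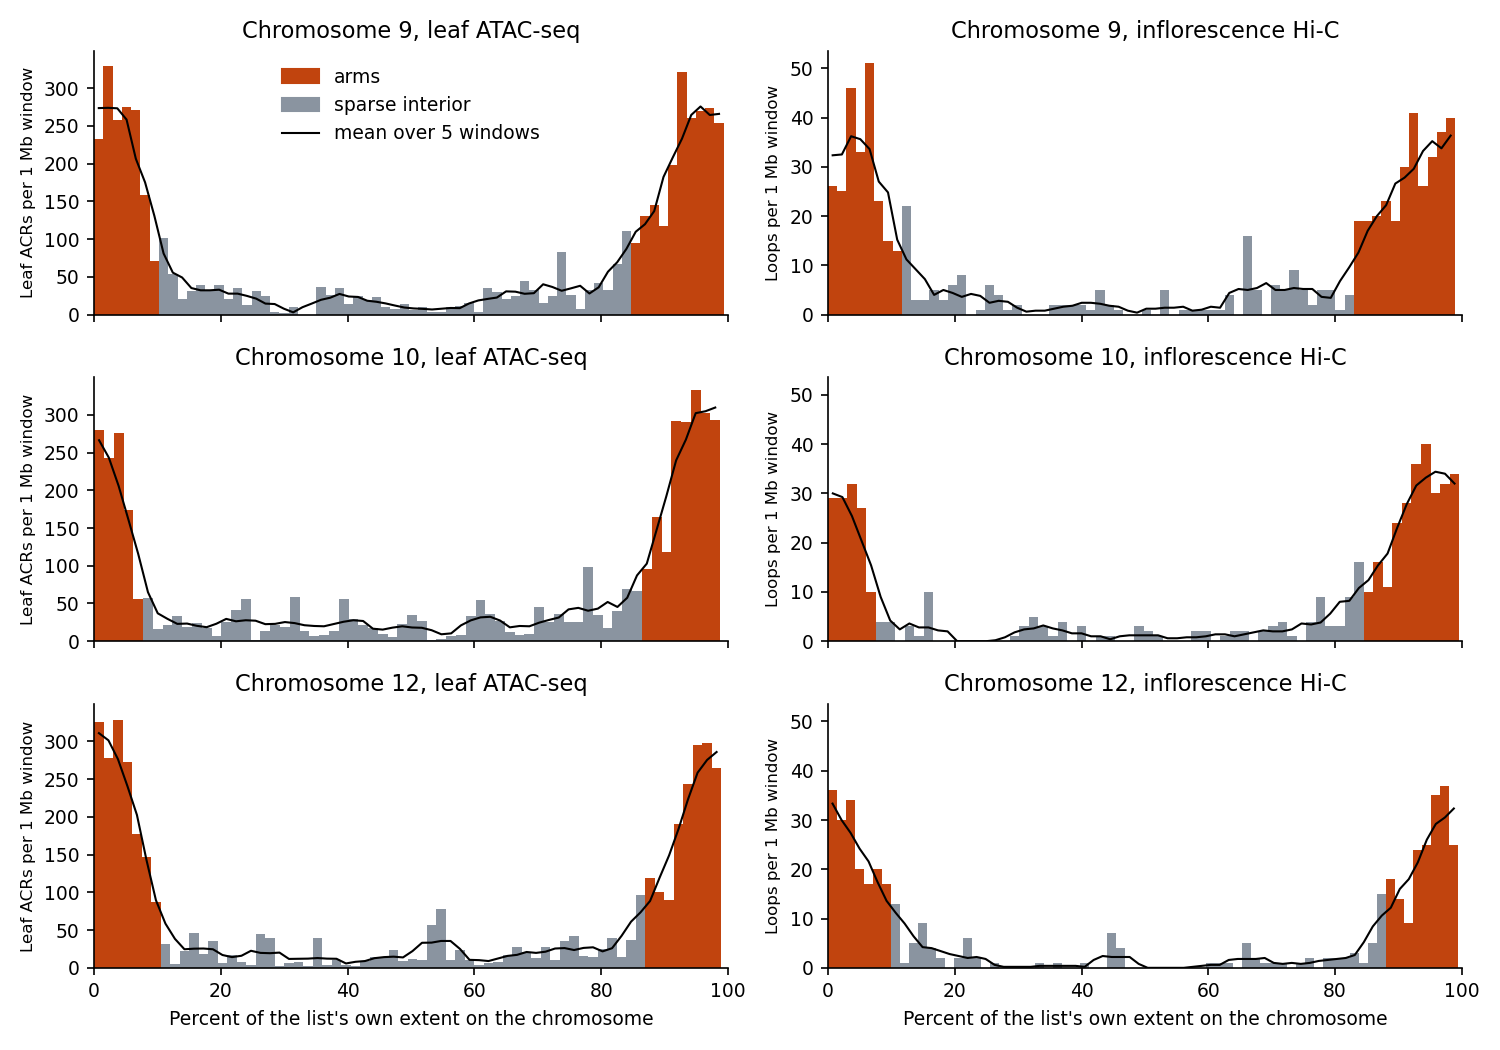
Leaf ACRs (left) and inflorescence loops (right) per 1 Mb window along chromosomes 9, 10 and 12, against position as a percentage of each list's own extent. Orange bars are arm windows, grey bars the sparse interior and the line is the mean over 5 windows. Arm windows reach 280 to 333 ACRs and the interiors have medians of 15 to 24.

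Ranked over whole chromosomes, the strongest ACRs named here lay in the arms, except the second of chromosome 10, which lay in the interior. ACRs were ranked by score and, among the many at the ceiling, by −log10 q. The first on chromosome 9 spanned 63673008 to 63676299 with a −log10 q of 16.4, and the third lay close beside it at 63666969 to 63669382 with 15.2. The widest ACR of this chromosome, 10849 bp, began just before them at 63643508. Its second strongest spanned 60218559 to 60223757, also in the end arm, with a −log10 q of 15.4. On chromosome 10 the first spanned 60421219 to 60431621 with a −log10 q of 15.0, in the end arm. The second, of 13.7, was in the sparse interior and spanned 49338358 to 49342267. The third, also of 13.7, spanned 3004674 to 3010850 in the start arm. The widest ACR of chromosome 10, at 11394 bp, began at 63501049 in the end arm. Chromosome 12 had weaker leaders, with −log10 q values of 13.4, 12.7 and 12.6. The first of these spanned 364543 to 366189, near the start of the chromosome, and the other two lay near its end, from 65761922 and from 65686920. In the interior of chromosome 9 the strongest ACR spanned 11299196 to 11305882 and had a −log10 q of 13.5. In that of chromosome 12 it spanned 49988585 to 49989737 and reached 12.2. The list gives no genes, so none is named at these positions.

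As a set, the ACRs of the 3 chromosomes were slightly weaker than those of the others. The median −log10 q was 2.51 on chromosome 9, 2.53 on chromosome 10 and 2.53 on chromosome 12, below all of the other 9, which ranged from 2.54 to 2.63. The difference of means, 3 minus 9, was −0.06 (exact two-sided permutation test over the 220 choices of 3 chromosomes, p = 0.0136, adjusted p = 0.0477 over 7 tests). The share at the score ceiling was 43.3%, 42.4% and 41.8%, against 43.4% to 44.9%, so the groups again did not overlap. The nearest values were 43.33% on chromosome 9 (Wilson interval 42.0 to 44.7%) and 43.36% on chromosome 6 (42.1 to 44.6%). These intervals overlapped almost fully, so the order of these chromosomes lay within counting error. The difference of means in this share, 3 minus 9, was −1.48 percentage points (exact permutation p = 0.00455, the smallest possible, and adjusted p = 0.0318). The 12 chromosomes belong to a single combined list. A p-value here is only the share of the 220 choices of 3 chromosomes with a difference of means at least as large in size. It does not measure the spread between replicates. Both measures come from the ACRs whose number chose the chromosomes and are not fully independent of that choice. The chromosomes were not drawn at random, so these p-values cannot show a difference apart from that choice. Neither difference passed after adjustment within the arms or the interiors alone. Without chromosome 2 the difference in −log10 q no longer passed, with an adjusted exact permutation p of 0.0848.

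The −log10 q was lower in the interiors than in the arms. In the arms of chromosomes 9, 10 and 12 the median −log10 q was 2.58, 2.57 and 2.58, and in the interiors it was 2.32, 2.45 and 2.35. Compared within the arms alone, the difference between the 3 and the other 9 was −0.04 (exact permutation p = 0.105, adjusted p = 0.338 over 12 tests by zone), and within the interiors −0.03 (exact permutation p = 0.623, adjusted p = 0.934). For the share at the ceiling the differences were −1.21 points in the arms (exact permutation p = 0.0455, adjusted p = 0.338) and −1.14 points in the interiors (exact permutation p = 0.468, adjusted p = 0.803). None of these passed the threshold of 0.05 after adjustment, which does not show that the values were alike.

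**Figure D4:**
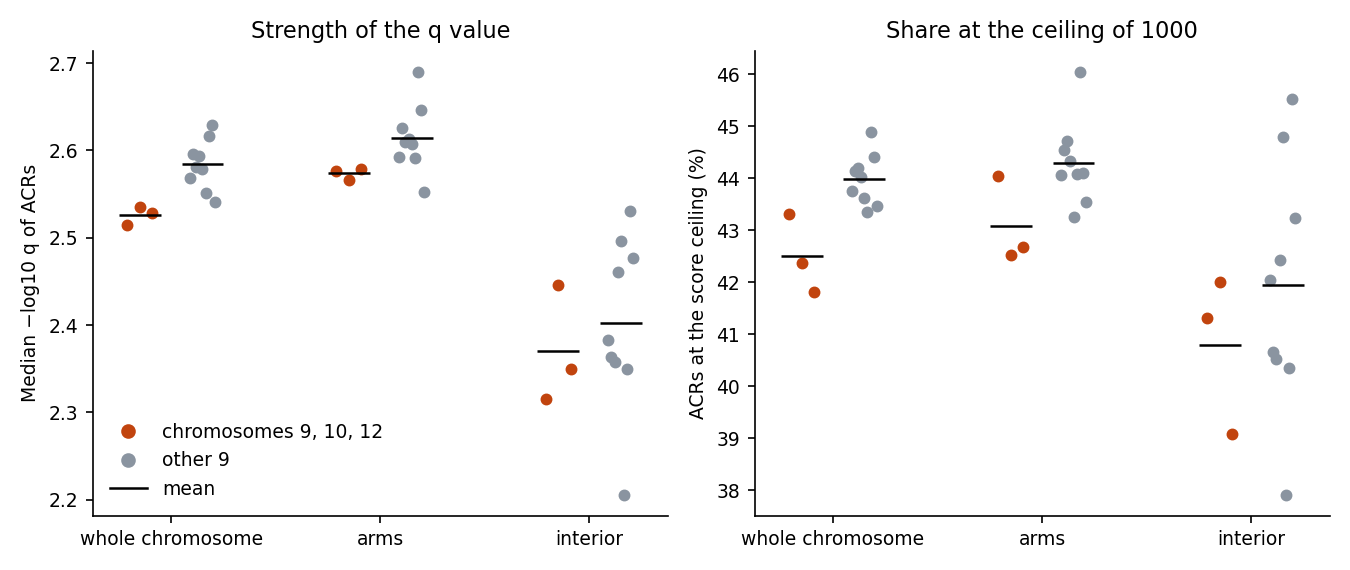
Median −log10 q (left) and percentage of ACRs at the score ceiling (right) for whole chromosomes, arms and interiors; each point is 1 chromosome, orange for chromosomes 9, 10 and 12 and grey for the other 9, and bars are means. Both axes start above 0. Over whole chromosomes the orange points, at 2.51 to 2.53 and 41.8% to 43.3%, lie below all grey points, and within arms or interiors the groups overlap. The lowest grey points over whole chromosomes are close to them, at 2.54 and 43.4%.

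ACR width did not separate the chromosomes. The median was 650 bp on chromosome 9, 675 bp on chromosome 10 and 664 bp on chromosome 12, within the range of 646 to 688 bp of the others. The difference of means was −1.94 bp (exact permutation p = 0.805, adjusted p = 0.805). On chromosome 9 interior ACRs were wider than those of the arms, with medians of 661 and 647 bp. The order was the opposite on chromosome 10, at 639 and 693 bp, and on chromosome 12, at 654 and 670 bp.

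The loop list showed the same layout in its own coordinates. With the threshold at 11.7 loops, the mean of its 796 full windows, the interior was 49 Mb on chromosome 9, 51 Mb on chromosome 10 and 55 Mb on chromosome 12. These were 71.3%, 77.0% and 78.1% of the extents. The interior of chromosome 12 was longer than those of the other 9 chromosomes except chromosome 1, at 65 Mb. The arms held 29.5, 26.3 and 24.6 loops per Mb, and chromosomes 10 and 12 were below the range of 28.2 to 40.4 of the other 9. The interiors held 3.24, 2.22 and 1.91 loops per Mb. The value of chromosome 12 was under all of the other 9, which had 2.08 to 5.68. Lengths alone, with the pooled zone densities of the other 9, gave 11.7, 9.97 and 9.60 loops per Mb for chromosomes 9, 10 and 12. These were above the listed 10.8, 7.76 and 6.86, while the other 9 pooled had 13.1. For loops, the arms of chromosomes 10 and 12 were thus thin as well as short. For ACRs the lengths alone also gave more than was listed on chromosome 12, at 75.6 against 67.5 per Mb, but not on chromosome 10.

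The arm windows with the most loops held 51 on chromosome 9, at 4 to 5 Mb, 40 on chromosome 10, at 62 to 63 Mb, and 37 on chromosome 12, at 68 to 69 Mb. The end arm of chromosome 9 also had a shelf, with 19, 19, 20, 23 and 19 loops in the 5 windows from 57 to 62 Mb before it rose to 30 and 41. In the arms, chromosome 9 had 15.4 loops per 100 ACRs, chromosome 10 had 12.5 and chromosome 12 had 11.1, against 13.5 to 16.4 on the other 9. In these ratios the arms were cut separately in each list.

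Windows without a loop were about as frequent as over the whole genome, and on chromosomes 10 and 12 they lay in long runs. Of the 204 full windows of the 3 chromosomes 52 held no loop, or 25.5%, against 200 of 796 windows (25.1%) over all 12 chromosomes. Chromosome 12 had 23 such windows (32.9%), chromosome 10 had 19 (28.8%) and chromosome 9 had 10 (14.7%). The longest run was 9 windows on chromosome 12, 8 on chromosome 10 and 3 on chromosome 9. Runs as long were not particular to them, since chromosome 7 also had 9 windows and chromosome 1 had 7. Measured between neighbouring anchors, the longest stretch with no anchor ran from 32565001 to 41890000 on chromosome 12, over 9.33 Mb, and without 10 kb loops it was 12.8 Mb. Chromosome 7 had a similar one of 9.24 Mb, and chromosome 1 one of 8.14 Mb. Chromosome 12 had further stretches of 5.22 Mb from 18150001 and 3.18 Mb from 25785001. On chromosome 10 the longest ran from 10825001 to 18855000, over 8.03 Mb, followed by 3.28 Mb from 34905001. Chromosome 9, whose longest was 3.78 Mb from 20465001, was the only one of the 3 with none over 5 Mb. No loop spanned any of the 9 longest stretches. Since spans end at 1000 kb in this list, stretches longer than that could not be spanned. Stretches of at least 1 Mb summed to 44.6% of the extent of chromosome 12, the highest share of the 12 chromosomes, to 30.0% of chromosome 10 and to 18.0% of chromosome 9. The other 9 ranged from 10.3% to 40.4%, and 6 of them were above chromosome 10.

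Loops in the sparse interior were long. The median span was 20 kb in the arms and 275 kb in the interior of chromosome 9, 10 and 295 kb on chromosome 10, and 15 and 180 kb on chromosome 12. The interior medians of chromosomes 9 and 10 were above those of all the other 9 chromosomes, which lay between 92.5 and 212 kb. In the interior, 90 of 159 loops of chromosome 9 were longer than 200 kb, or 56.6% (95% Wilson interval 48.8 to 64.1%). The same held for 68 of 113 on chromosome 10, or 60.2% (51.0 to 68.7%), and for 46 of 105 on chromosome 12, or 43.8% (34.7 to 53.4%). In the arms these shares were 2.24%, 3.24% and 4.23%. Loops of 10 kb, the shortest span listed, showed the opposite, at 40.8%, 51.6% and 49.5% of arm loops and 8.18%, 8.85% and 15.2% of interior loops. For the share of interior loops over 200 kb, the other 9 chromosomes ranged from 29.8% to 51.4%. Chromosomes 9 and 10 lay above this range and chromosome 12 within it. The difference of means between the 3 and the other 9 was 8.56 points and did not pass (exact permutation p = 0.118, adjusted p = 0.338). This does not show that the shares were alike.

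Very long loops were listed more often on chromosomes 9 and 10 than on chromosome 12, a difference that was not tested. Loops over 500 kb numbered 46 on chromosome 9, or 6.22% of its loops (95% Wilson interval 4.69 to 8.19%), and 42 on chromosome 10, or 8.17% (6.10 to 10.9%). Chromosome 12 had 14, or 2.90% (1.73 to 4.81%), and the other 9 chromosomes ranged from 1.21% to 4.79%. Most lay in the interior, with 43 of 46 on chromosome 9, 39 of 42 on chromosome 10 and 10 of 14 on chromosome 12. The longest on chromosome 9 joined the bins at 26645001 to 26650000 and 27645001 to 27650000, 1000 kb apart, and the next joined bins within 20 kb of those, at 26665001 and 27655001, 990 kb apart. On chromosome 10 the longest spanned 980 kb from 43265001. The next 2, of 965 and 930 kb, lay in the end arm and shared the anchor bin at 58580001 to 58585000. The longest on chromosome 12, of 900 and 895 kb, lay in its end arm, from 64240001 and from 63250001, and the third, of 850 kb, began at 11430001 in the interior.

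**Figure D5:**
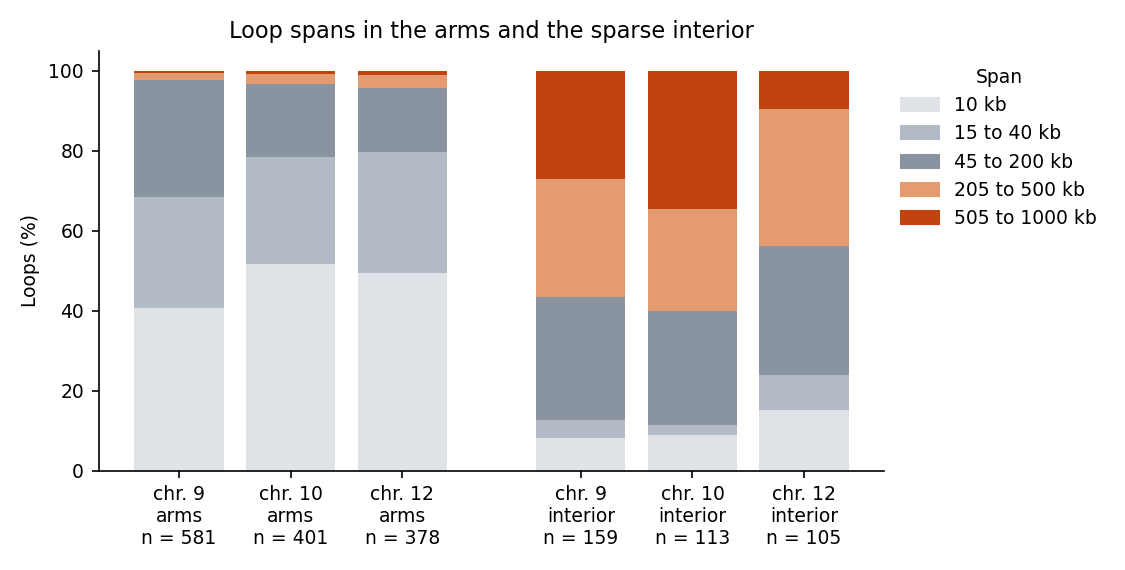
Percentage of loops in 5 classes of span for the arms and the sparse interior of chromosomes 9, 10 and 12, with the number of loops under each bar. Spans over 200 kb, in orange shades, make up 2.24% to 4.23% of arm loops and 43.8% to 60.2% of interior loops, and the darkest class is thinner on chromosome 12 than on chromosomes 9 and 10.

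Over whole chromosomes the share of loops longer than 200 kb was 13.9% on chromosome 9, 15.8% on chromosome 10 and 12.8% on chromosome 12. The mean was 14.2 ± 1.48% (SD, n = 3 chromosomes) against 9.45 ± 3.05% on the other 9. The difference of 4.72 points did not pass after adjustment (exact permutation p = 0.0364, adjusted p = 0.0636). Chromosomes 8 and 11, the latter at 14.7%, overlapped the 3. Among loops longer than 10 kb the difference was 7.73 points and did pass (exact permutation p = 0.0182, adjusted p = 0.0424). Most loops over 200 kb were interior loops, so this share is not independent of the long interiors or of the choice of chromosomes. Within the arms alone the difference was 0.10 points (exact permutation p = 0.918, adjusted p = 0.977). Within the interiors it was 8.56 points (exact permutation p = 0.118, adjusted p = 0.338), and neither passed. The median span of all loops was 35, 22.5 and 20 kb on chromosomes 9, 10 and 12, against 15 to 30 kb on the others (difference of 0.25 on the log2 scale, exact permutation p = 0.305, adjusted p = 0.426). Loops of 10 kb made up 33.8%, 42.2% and 42.0% of the loops (difference from the other 9 of −1.35 points, exact permutation p = 0.65, adjusted p = 0.758). Chromosome 9 had the lowest share of 10 kb loops of the 12 chromosomes.

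The sharing of anchors between loops did not pass the test. Bins that anchored at least 2 loops made up 18.6% of the 1212 anchor bins of chromosome 9, 15.3% of 876 on chromosome 10 and 15.6% of 828 on chromosome 12. The other 9 chromosomes, which had more anchor bins than chromosomes 10 and 12, ranged from 16.2% to 21.9% (difference of −3.03 points, exact permutation p = 0.0364, adjusted p = 0.0636). The busiest bins of chromosomes 9 and 10 anchored 4 loops each, and all of them, 6 on chromosome 9 and 2 on chromosome 10, lay in arms. On chromosome 12 the most was 3 loops, in 9 bins. One of these lay in the interior, at 31790001 to 31795000, and its loops spanned 255, 300 and 790 kb. Each of the other 8 lay in an arm and had loops of at most 75 kb.

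Loops that joined an arm to the interior were also counted. Of the loops, 4 crossed an arm boundary on chromosome 9, 2 on chromosome 10 and 4 on chromosome 12, or 0.541%, 0.389% and 0.828%. The longest of them spanned 170 kb on chromosome 9, from 56885001, 300 kb on chromosome 10, from 4765001, and 215 kb on chromosome 12, from 61890001. On the other 9 chromosomes between 0 and 6 loops crossed. The number expected from the spans was not worked out, so the counts do not show whether crossings were rare. The interiors also held windows with raised loop counts, picked out by the same rule as the islands of ACRs. The interior median was 2 loops on chromosome 9 and 1 on chromosomes 10 and 12. The limit was therefore higher on chromosome 9, and windows of 3 loops met it on chromosome 10. There were 6 such windows on chromosome 9, 10 on chromosome 10 and 4 on chromosome 12, which are not directly comparable. Of their loops 27 of 51, 25 of 42 and 19 of 22 were longer than 200 kb, or 52.9%, 59.5% and 86.4%, against 56.6%, 60.2% and 43.8% of all interior loops. Among these windows, the fullest on each chromosome was richer in long loops than some of the others, but not than all. At 45 to 46 Mb of chromosome 9, a window with 16 loops stood between windows of 0 and 5, and 11 of its loops were longer than 200 kb, while at 17 to 18 Mb only 1 of 6 was. At 10 to 11 Mb of chromosome 10 there were 10 loops between windows of 1 and 0, of which 8 were longer than 200 kb, while none of the 3 at 46 to 47 Mb was. At 31 to 32 Mb of chromosome 12 all 7 loops were longer than 200 kb, and so were all 5 at 46 to 47 Mb. Some less full windows had higher shares than the fullest. Of the loops at 14 to 15 Mb of chromosome 9, 6 of 8 were longer than 200 kb, and at 20 to 21 Mb of chromosome 10 all 3 were. These windows were chosen after the counts were seen and were not tested.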

How the data were processed

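The data are 2 combined lists, 1 per assay, from 6 leaf ATAC-seq replicates and 2 inflorescence Hi-C replicates. The submitters' processing notes name HiC-Pro 3.1.0, Genrich 0.6, bedtools, SAMtools, Picard, BWA and Trimmomatic, without settings. The deposited score of each peak is the authors' whole number with a ceiling of 1000, and the −log10 q is the authors' value, read from the deposited peak name. The deposited loops are pairs of 5 kb bins with no strength. Starts of peaks were taken to follow the BED convention and are given 1-based, although the file header names GFF; read as GFF, starts would be 1 bp lower.

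ACRs and loops were counted by midpoint in full 1 Mb windows with Python 3.11.15 (pandas 2.3.3, SciPy 1.17.1), and the method was tested on simulated data. Chromosomes were compared with an exact permutation test over all 220 choices of 3 of 12, with Benjamini-Hochberg adjustment over 7 tests; the 12 tests by zone were added later and adjusted together. The items named on each chromosome are the 3 first by rank, the widest ACR, the 3 longest stretches and loops, the densest windows, the busiest bins and the longest loop across an arm boundary. The chromosomes, measures and definitions were chosen with earlier results of these data known. Depth is unknown, and intervals cover counting error only.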

Additional observations from a re-analysis of the deposited data

How the results depend on the processing

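The ratio of the mean ACR density of the 3 chromosomes to that of the other 9 was 0.730 as reported and 0.708 to 0.740 under the other ACR sets. That of loop density was 0.636, and 0.667 without 10 kb loops. The mean length of the interior was 51 Mb for ACRs, with alternatives of 45.3 to 51 Mb, and 51.7 Mb for loops, with 44.3 to 48.7 Mb. On chromosome 9 the loop interior fell from 49 to 36 Mb under a lower threshold, where the mean of the other 9 was 34.7 Mb. With each chromosome's own mean as the threshold, the mean loop interior was 48.7 Mb on the 3 chromosomes and 44.4 Mb on the other 9. The difference in median width turned from −1.94 to 0.917 bp without chromosome 2. The difference in −log10 q no longer passed without chromosome 2, at −0.0565, in the arms alone, at −0.0408, or in the interiors alone, at −0.0324. That in the share at the ceiling no longer passed in the arms alone, at −1.21 points, or in the interiors alone, at −1.14. The share of loops over 200 kb passed without 10 kb loops, at 7.73 points, but not without chromosome 2 (adjusted exact permutation p = 0.106), nor as the share over 100 kb (0.135) or over 500 kb (0.0530). The causes were not tested. The longest ACR-free stretch of chromosome 10 moved from 1.04 to 1.62 and 1.75 Mb under stricter ACR sets. The comparisons by zone, and that of the ceiling among ACRs of at least 500 bp, were added after seeing the data. No paired analysis was possible because the replicates of each assay were combined before listing, and for the same reason none could be left out.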

Other observations

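ACRs of the sparse interior lay in closer groups on chromosomes 9 and 10 than on the other chromosomes. The median distance to the next ACR was 1844 bp in the interior of chromosome 9 and 1834 bp in that of chromosome 10. On chromosome 12 it was 3240 bp, and on the other 9 chromosomes it lay between 2097 and 3512 bp. A next ACR less than 1 kb away followed 41.9% of interior ACRs on chromosome 9, 40.6% on chromosome 10 and 35.7% on chromosome 12, against 34.1% to 40.3% on the others. In the arms the median distances were 895, 791 and 793 bp on chromosomes 9, 10 and 12, within the range of 650 to 917 bp of the others. These distances depend on ACR density and were not tested.

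Chromosome 12 differed from chromosomes 9 and 10 in several of the listed measures of its interior. It had the fewest ACRs per Mb of interior of the 3, at 21.2, the lowest share of interior ACRs at the score ceiling, at 39.1% against 41.3% and 42.0%, and the lowest share of interior loops over 500 kb, at 9.52% against 27.0% and 34.5%. The first 2 of these values lay within the ranges of the other 9 chromosomes, 20.5 to 27.7 ACRs per Mb and 37.9% to 45.5% at the ceiling. The lowest share of interior loops over 500 kb among the other 9 chromosomes was 10.4%. With 1 chromosome against the rest, no test was made.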
